A study of Mus musculus with 21 samples.

Results

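The genes described here encode 10 enzymes of mitochondrial fatty acid oxidation: Cpt1a, Cpt2, Acadvl, Acadl, Acadm, Acads, Hadha, Hadhb, Etfa and Etfdh. They were taken by symbol from the 24091 genes of a table of RNA sequencing values, and all 10 of 10 were found. The values came from 21 libraries of C3H/10T1/2 cells, a mouse embryonic line of mesenchymal progenitors that can form fat, cartilage, bone or muscle cells in culture. The cells were grouped by the form of histone H2B they carried, and each of the 7 groups had 3 libraries. The mutant groups were E71K, E71Q, E76K, E76Q, E113K and E113Q, in which 1 of the glutamates E71, E76 and E113 was replaced by lysine (K) or glutamine (Q), and the remaining group was H2BWT, written WT below. All groups were of the same cell line, grown in DMEM with 10% fetal bovine serum. The labels do not say how H2B was introduced, whether the cells kept other H2B, or whether a group was 1 clone. Nor do they say if the 3 replicates were grown as separate cultures, and the spread that p-values rest on may be technical.

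Long-chain fatty acids enter mitochondria as carnitine esters. CPT1 makes the ester at the outer membrane and is the step inhibited by malonyl-CoA, and CPT2 returns the chain to coenzyme A inside. Each turn of the beta-oxidation spiral then begins with an acyl-CoA dehydrogenase, of which there is a set graded by chain length (very long, long, medium and short: Acadvl, Acadl, Acadm and Acads). The trifunctional protein, made of the alpha subunit Hadha and the beta subunit Hadhb, carries out the remaining steps for long chains. Electrons taken by the dehydrogenases pass to the electron transfer flavoprotein, whose subunits are Etfa and Etfb, and by way of its ubiquinone oxidoreductase Etfdh to the respiratory chain. Several of these genes are targets of PPAR receptors paired with RXR, and of PGC-1 with ERR receptors, in liver, muscle and fat.

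Values are TPM, transcript abundances scaled by gene length and to 1 total per library, so levels of different genes can be set side by side. The depth of each library is unknown, since TPM holds no counts. Differences are on the log2(TPM + 1) scale from a limma model of all 21 libraries, and a gene is said to rise or fall where its Benjamini-Hochberg adjusted p was below 0.05 over the 12192 genes that averaged 1 TPM or more, which include all 10 members. The RNA Mir6236 took between 2.19% and 30.6% of a library's TPM and lowered the other genes there, most in E71K replicate 2 (30.6%) and E71Q replicate 1 (21.2%). A rescaling of each library by the median ratio of 8056 expressed genes gave these libraries factors of 0.753 and 0.826, and results after it are given as rescaled. As deposited, the median of all tested genes lay 0.16 above WT in E76K and 0.13 above WT in E113K on the log2 scale, and 0.01 above it in both once rescaled. E71K replicate 3, E71Q replicate 1, E76K replicate 3 and E113Q replicate 3 are called the libraries apart below. Their mean correlations to their mates, of 0.937, 0.961, 0.957 and 0.948, were the lowest of their groups. The gap was small for E71Q replicate 1, whose mates had 0.969 and 0.966, and E76K replicate 3, whose mates had 0.966 and 0.962. E71K replicates 1 and 2, not in this set, had 0.954 and 0.952, below E71Q replicate 1. These values alone do not show the libraries apart to be outliers. The 10 markers of mesenchymal cells summed to between 7580 and 11600 TPM per library, most of it Vim, Col1a2 and Col1a1. Of the others, Thy1 averaged 0.0791 TPM in E71K, 0.963 TPM in E71Q and 0.472 TPM in E76Q against 66 TPM in WT, and Eng between 1.13 and 1.96 TPM in E71K, E71Q, E76K and E76Q against 20.7 TPM in WT. The 10 markers of mature fat cells summed to at most 8.78 TPM, with Lep, the hormone leptin, listed at 0 in every library and Adipoq, adiponectin, at 0.877 TPM or less. Their sums were 5.94 to 8.78 TPM in E113Q against 0.591 to 1.3 TPM in WT. Cebpa, at most 5.94 TPM, was the only 1 of them tested, and it rose in E76Q (1.57), E113K (0.81) and E113Q (2.26). In such bulk RNA, fewer cells of a type and less RNA per cell cannot be told apart.

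All 10 genes were expressed in every library. Etfa was the most abundant, with a mean of 145 TPM, followed by Acadm with 110 TPM and Acadl with 83.7 TPM. Cpt2 was the least abundant, with 21.4 TPM. The genes differed in how far the H2B groups spread them. The mean of Acadm was 4.59 times as high in its highest group, E76K, as in its lowest, E71K. For Cpt1a this ratio was 3, between E113K and E76Q. For the other 8 genes it lay between 1.32 for Hadhb and 1.72 for Acadvl. A moderated F test over the 7 groups called 8 of the 10 genes, a share near the 77.1% of all tested genes that it called. Hadhb (adjusted p = 0.171) and Cpt2 (adjusted p = 0.0555) did not pass it as deposited, and all 10 genes passed it when rescaled, as did 89.1% of all tested genes, Cpt2 with the largest adjusted p of 0.0134.

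**Figure D1:**
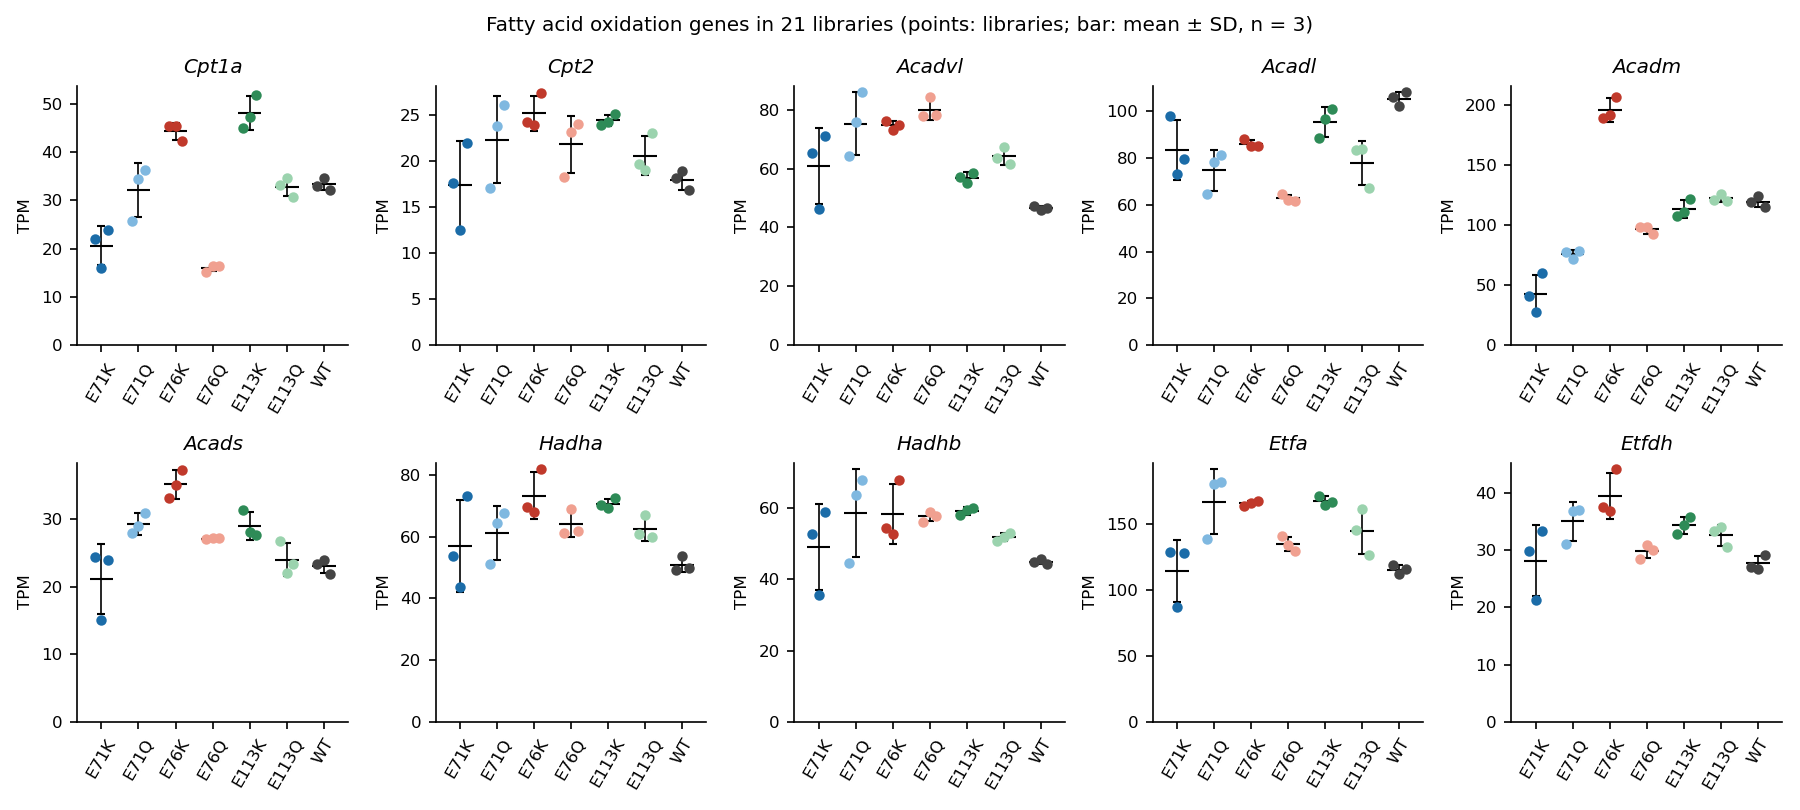
TPM of the 10 fatty acid oxidation genes (vertical axes, linear and starting at 0) in the 7 H2B groups (horizontal axes); each point is a library and each bar the mean ± SD of 3. Acadm runs between 27.6 TPM in E71K and 207 TPM in E76K, and Acadvl is lowest in WT.

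The very long-chain and long-chain acyl-CoA dehydrogenases moved in opposite directions. Acadvl, the very long-chain enzyme, was at 65.4, 46.3 and 71.1 TPM in E71K, at 64.4, 75.7 and 85.9 TPM in E71Q, at 76.1, 73.3 and 74.8 TPM in E76K, at 77.9, 84.2 and 78.1 TPM in E76Q, at 57.1, 55 and 58.6 TPM in E113K and at 63.7, 67.4 and 61.7 TPM in E113Q, against 47.3, 46 and 46.7 TPM in WT. Every mutant library lay above every WT library except E71K replicate 2, which fell among them. Acadvl rose in 5 of the 6 mutants, by 0.77 ± 0.13 in E76Q (SE; limma adjusted p = 0.000132), 0.67 ± 0.13 in E76K (adjusted p = 0.000642), 0.67 ± 0.13 in E71Q (adjusted p = 0.000449), 0.45 ± 0.13 in E113Q (adjusted p = 0.0121) and 0.36 ± 0.13 in E71K (adjusted p = 0.048). In E113K it was higher by 0.28 ± 0.13 and did not pass the test (adjusted p = 0.0758), and when rescaled it rose in all 6. The E71K call lay close to the threshold and was lost with the replicate number as a block (0.053), without E71K replicate 1 or 3 or any 1 WT library (adjusted p between 0.099 and 0.191), without the 4 libraries apart (0.115) and in a fit of the 6 compared libraries alone (0.329).

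Acadl, the long-chain enzyme, took the other direction. It was at 97.9, 73.2 and 79.4 TPM in E71K, at 64.7, 78.1 and 81.3 TPM in E71Q, at 88, 85 and 84.9 TPM in E76K, at 64.5, 62 and 61.8 TPM in E76Q, at 88.4, 96.7 and 101 TPM in E113K and at 83.2, 83.7 and 67.2 TPM in E113Q, against 106, 102 and 108 TPM in WT. No mutant group overlapped WT. Acadl fell in 4 mutants, by 0.74 ± 0.12 in E76Q (adjusted p = 7.45e-05), 0.50 ± 0.12 in E71Q (adjusted p = 0.00225), 0.44 ± 0.12 in E113Q (adjusted p = 0.00838) and 0.34 ± 0.12 in E71K (limma adjusted p = 0.0354). In E76K the difference was -0.29 ± 0.12 (adjusted p = 0.0625) and in E113K -0.15 ± 0.12 (adjusted p = 0.308), and when rescaled it fell in all 6. The E71K call was lost without E71K replicate 2 or 3 or any 1 WT library, at adjusted p between 0.0648 and 0.107, and in a fit of the 6 compared libraries alone (0.283).

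A ratio of genes within a library does not depend on the scaling of that library. The TPM of Acadl over that of Acadvl was 1.4 ± 0.248 in E71K, 0.995 ± 0.0437 in E71Q, 1.15 ± 0.0128 in E76K, 0.785 ± 0.046 in E76Q, 1.68 ± 0.113 in E113K and 1.21 ± 0.112 in E113Q, against 2.26 ± 0.0544 in WT (SD, n = 3 each). It ran between 0.736 and 1.76 over the 18 mutant libraries and between 2.23 and 2.32 over the 3 WT libraries, with no overlap. At each residue the glutamine mutant had the lower ratio, and its libraries did not overlap those of the lysine mutant.

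Acadm, the medium-chain enzyme, covered the widest range of the 10 genes. It was at 40.6, 27.6 and 59.8 TPM in E71K, at 77.9, 72.2 and 78.4 TPM in E71Q, at 189, 192 and 207 TPM in E76K, at 98.9, 98.2 and 92.4 TPM in E76Q, at 108, 111 and 122 TPM in E113K and at 121, 126 and 120 TPM in E113Q, against 119, 124 and 115 TPM in WT. Both E71 mutants and E76Q lay wholly below WT, E76K lay wholly above it, and both E113 mutants overlapped it. Acadm fell by 1.53 ± 0.17 in E71K (adjusted p = 1.83e-06) and by 0.64 ± 0.17 in E71Q (adjusted p = 0.00556), and rose by 0.71 ± 0.17 in E76K (limma adjusted p = 0.00427). In E76Q the difference was -0.31 ± 0.17 (adjusted p = 0.155 as deposited and 0.0281 when rescaled). In order of their means the groups ran E71K, E71Q, E76Q, E113K, WT, E113Q and E76K, and the neighbours E113K and WT, and WT and E113Q, overlapped.

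Acads, the short-chain enzyme, rose in E76K alone as deposited, at 33.1, 35.1 and 37.3 TPM in E76K against 23.3, 23.9 and 21.9 TPM in WT, a difference of 0.59 ± 0.13 (adjusted p = 0.0029). In E71Q (0.34 ± 0.13, limma adjusted p = 0.0518) and E113K (0.32 ± 0.13, adjusted p = 0.0554) it did not pass the test, though neither group overlapped WT. When rescaled it rose in 3 mutants, E71Q, E76K and E76Q. Among the summed TPM of the 4 dehydrogenases, Acadm held between 17% and 25.6% in the E71K libraries and between 48.9% and 51.3% in the E76K libraries, against 39.4% to 41.9% in the WT libraries. Acadl was the most abundant of the 4 in every E71K library, and Acadm in every E76K and every WT library.

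**Figure D2:**
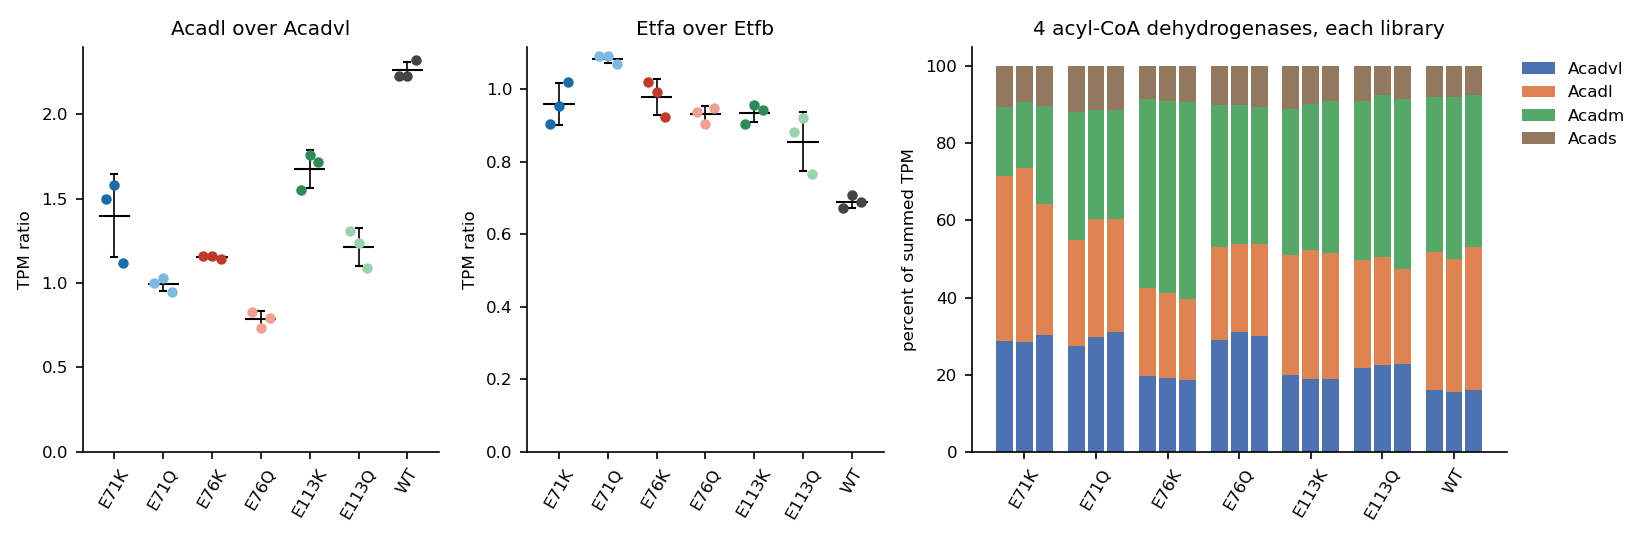
Ratio of Acadl to Acadvl TPM, ratio of Etfa to Etfb TPM, and the percent of the summed TPM of 4 acyl-CoA dehydrogenases held by each; points and bars are single libraries, and lines with whiskers are mean ± SD of 3. The Acadl ratio is between 2.23 and 2.32 in WT and at most 1.76 in any mutant library, and the Etfa ratio is at most 0.708 in WT and at least 0.765 in any mutant library.

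The promoters of these 3 dehydrogenases are shown because their RNA levels separated most clearly. Each window runs from 250 bases before to 50 bases after a transcript start in RefSeq on build GRCm38.p6 (the first base of the gene except for Cpt1a), 5′ to 3′ on the strand of the gene, and all 10 members matched an entry. Capitals mark matches to any of 6 motifs searched on both strands: AGGTCANAGGTCA, the direct repeat bound by PPAR with RXR; AGGTCA, the half-site, which that repeat contains; AAGGTCA, the extended half-site of ERR receptors, which contains AGGTCA; GCATGCGC, the core of the NRF1 site; CCAAT; and GGGCGG, the GC box. Acadvl lies on chr11:70015379-70015678 on the minus strand, Acadl on chr1:66863260-66863559 on the minus strand and Acadm on chr3:153944594-153944893 on the minus strand.
Acadvl: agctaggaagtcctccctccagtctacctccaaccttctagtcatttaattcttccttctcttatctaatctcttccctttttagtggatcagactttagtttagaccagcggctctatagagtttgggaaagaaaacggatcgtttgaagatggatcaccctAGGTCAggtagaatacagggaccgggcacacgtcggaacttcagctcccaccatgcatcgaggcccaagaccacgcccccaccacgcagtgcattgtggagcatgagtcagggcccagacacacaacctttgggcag
Acadl: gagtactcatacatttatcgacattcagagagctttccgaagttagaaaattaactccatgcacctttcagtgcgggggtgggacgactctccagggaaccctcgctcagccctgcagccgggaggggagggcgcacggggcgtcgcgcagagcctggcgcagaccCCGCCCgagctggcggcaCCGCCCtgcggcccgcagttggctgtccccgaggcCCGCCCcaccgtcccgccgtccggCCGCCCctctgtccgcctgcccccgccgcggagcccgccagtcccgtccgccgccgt
Acadm: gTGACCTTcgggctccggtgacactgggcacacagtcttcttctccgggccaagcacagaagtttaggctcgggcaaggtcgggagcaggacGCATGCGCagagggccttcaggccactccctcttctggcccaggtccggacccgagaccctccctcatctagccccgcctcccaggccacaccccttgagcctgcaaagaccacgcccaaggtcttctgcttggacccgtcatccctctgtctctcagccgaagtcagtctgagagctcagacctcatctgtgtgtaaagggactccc
The Acadvl window held AGGTCA alone, the Acadl window held 4 GC boxes, and the Acadm window held AAGGTCA and GCATGCGC. The full repeat AGGTCANAGGTCA was in 0 of the 10 windows and in 0.0508% of the 21673 windows of the genes in the table. AGGTCA was in 3 of 10 windows and 14.5% of all, AAGGTCA in 1 of 10 and 4.08% of all, and GCATGCGC in 3 of 10 (Acadm, Etfa and Etfdh) and 3.59% of all. CCAAT was in 3 of 10 and 38.1% of all, and the GC box in 7 of 10 and 46.8% of all. A match describes the letters of these windows and does not show binding.

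Cpt1a, the carnitine transferase of the outer membrane, rose in 2 mutants and fell in 2. It was at 21.9, 16 and 23.9 TPM in E71K, at 25.8, 34.4 and 36.2 TPM in E71Q, at 45.3, 45.3 and 42.2 TPM in E76K, at 15.2, 16.4 and 16.3 TPM in E76Q, at 45, 47.2 and 51.8 TPM in E113K and at 33.2, 34.5 and 30.7 TPM in E113Q, against 33, 34.6 and 32.2 TPM in WT. The E71K and E76Q libraries all lay below WT, the E76K and E113K libraries all above it, and the E71Q and E113Q libraries overlapped it. Cpt1a fell by 1.01 ± 0.13 in E76Q (adjusted p = 1.13e-05) and by 0.68 ± 0.13 in E71K (adjusted p = 0.000764), and rose by 0.51 ± 0.13 in E113K (limma adjusted p = 0.00403) and by 0.40 ± 0.13 in E76K (adjusted p = 0.0277). Rescaled, the 3 E71K libraries lay between 21.2 and 21.3 TPM. The E76K call was lost without E76K replicate 1 or 2 or any 1 WT library, at adjusted p between 0.0507 and 0.0833, and the E71K call in a fit of those 6 libraries alone (0.0506). For Cpt1a the RefSeq window is set on a transcript start at base 3323301, which lies 975 bases inside the RefSeq gene interval, whose first base is 3322326. This window, on chr19:3323051-3323350 on the plus strand, held AGGTCA, a match to CCAAT and 3 GC boxes. It is shown because Cpt1a had the wider range of the 2 carnitine transferases among the members.
Cpt1a: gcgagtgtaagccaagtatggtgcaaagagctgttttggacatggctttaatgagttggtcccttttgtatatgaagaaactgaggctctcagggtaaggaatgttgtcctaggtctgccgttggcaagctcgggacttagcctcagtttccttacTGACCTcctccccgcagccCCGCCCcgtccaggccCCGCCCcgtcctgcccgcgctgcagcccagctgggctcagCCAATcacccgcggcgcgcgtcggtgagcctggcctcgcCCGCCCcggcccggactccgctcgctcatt

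Cpt2, the transferase of the inner membrane, varied less. It was at 24.2, 23.9 and 27.4 TPM in E76K and at 23.9, 24.2 and 25.1 TPM in E113K, against 18.2, 18.9 and 16.8 TPM in WT, and rose by 0.47 ± 0.17 in E76K (adjusted p = 0.0444) and by 0.43 ± 0.17 in E113K (limma adjusted p = 0.0459). Both calls lay close to the threshold and were lost without any 1 library of the mutant or of WT, at adjusted p between 0.0671 and 0.145, and with no filter on low genes (0.0571 and 0.0636). The TPM ratio of Cpt1a to Cpt2 was 0.74 ± 0.0807 in E76Q and 1.20 ± 0.102 in E71K, against 1.86 ± 0.056 in WT (SD, n = 3 each). The other CPT1 genes did not follow Cpt1a in every group. The muscle form Cpt1b had group means between 0.939 TPM in WT and 1.23 TPM in E113Q. The brain form Cpt1c was highest in E76K (26.4 ± 2.94 TPM) and E113K (23.8 ± 2.18 TPM), where Cpt1a also rose. It averaged 17.2 ± 0.653 TPM in E76Q, where Cpt1a was lowest, against 13.4 ± 0.344 TPM in WT. Cpt1c rose in 4 mutants: E76Q, by 0.34 ± 0.13 (adjusted p = 0.0437), E113Q, by 0.72 ± 0.13 (adjusted p = 0.000392), E113K, by 0.78 ± 0.13 (adjusted p = 0.000102), and E76K, by 0.92 ± 0.13 (adjusted p = 2.79e-05). Slc25a20, the carnitine-acylcarnitine carrier between the transferases, fell in E76K to 8.04 ± 0.811 TPM, against 18.3 ± 1.85 TPM in WT (adjusted p = 2.11e-05), and rose in E71Q to 27.1 ± 3.81 TPM (adjusted p = 0.00762).

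Hadha and Hadhb, the subunits of the trifunctional protein, kept close to each other. Hadha was at 53.8, 43.6 and 73 TPM in E71K, at 51.1, 64.4 and 67.6 TPM in E71Q, at 69.7, 68.1 and 82 TPM in E76K, at 61.2, 68.8 and 61.8 TPM in E76Q, at 70.2, 69.2 and 72.5 TPM in E113K and at 60.9, 66.9 and 59.8 TPM in E113Q, against 49.3, 53.6 and 49.9 TPM in WT. Hadhb was at 52.6, 35.6 and 58.9 TPM in E71K, at 44.7, 63.7 and 67.8 TPM in E71Q, at 54.4, 52.7 and 68 TPM in E76K, at 56.2, 59 and 57.8 TPM in E76Q, at 58.1, 59.4 and 60.1 TPM in E113K and at 50.7, 52 and 53 TPM in E113Q, against 44.9, 45.6 and 44.4 TPM in WT. For both genes the 2 E71 mutants overlapped WT and the other 4 mutants lay wholly above it. Hadha rose by 0.51 ± 0.15 in E76K (adjusted p = 0.0125) and by 0.47 ± 0.15 in E113K (limma adjusted p = 0.0136), the first lost without E76K replicate 3 (0.0665), and Hadhb passed the test in no mutant as deposited, with differences between 0.09 and 0.39. Rescaled, Hadha rose in 5 mutants (not E71K) and Hadhb in 3 (E71Q, E76Q and E113K). The ratio of Hadha to Hadhb stayed between 0.998 and 1.29 over all 21 libraries. This closeness was not particular to the pair. Pearson's r of log2(TPM + 1) was 0.882 between them, while Cpt2 had 0.885 with Hadha and 0.898 with Hadhb.

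The genes for these subunits lie head to head on chromosome 5. The RefSeq start of Hadha, on the minus strand, is at base 30154980 and that of Hadhb, on the plus strand, at base 30155253, a distance of 273 bases. Their promoter windows share 228 bases, so the Hadhb window, chr5:30155003-30155302 on the plus strand, shows most of the sequence between both genes.
Hadhb: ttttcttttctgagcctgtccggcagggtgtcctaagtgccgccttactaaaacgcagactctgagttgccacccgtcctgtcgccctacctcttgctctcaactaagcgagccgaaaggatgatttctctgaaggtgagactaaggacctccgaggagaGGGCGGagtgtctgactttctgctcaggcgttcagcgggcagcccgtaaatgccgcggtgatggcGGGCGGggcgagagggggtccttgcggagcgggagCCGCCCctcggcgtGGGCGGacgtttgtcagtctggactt
The capitals in it are GC boxes, 4 in the Hadhb window, and none of the other motifs was found there.

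Etfa and Etfdh, which take the electrons onward, had differences of the same sign in most mutants. Etfa was at 129, 87.4 and 128 TPM in E71K, at 139, 181 and 182 TPM in E71Q, at 164, 166 and 168 TPM in E76K, at 141, 134 and 130 TPM in E76Q, at 172, 165 and 167 TPM in E113K and at 146, 162 and 127 TPM in E113Q, against 119, 112 and 116 TPM in WT. Every mutant group but E71K lay wholly above WT. Etfa rose by 0.53 ± 0.14 in E113K (adjusted p = 0.00369), by 0.52 ± 0.14 in E76K (adjusted p = 0.00779) and by 0.52 ± 0.14 in E71Q (limma adjusted p = 0.00554), and when rescaled in the same 5 mutants that lay above WT. Etfb, the partner subunit, averaged 120 ± 25.7 TPM in E71K, 170 ± 10.8 TPM in E76K and 180 ± 9.15 TPM in E113K, against 168 ± 9.28 TPM in WT (SD, n = 3 each). The ratio of Etfa to Etfb was between 0.765 and 1.09 over the 18 mutant libraries and between 0.673 and 0.708 in WT. Etfdh, the oxidoreductase, rose in E76K, with 37.5, 36.9 and 44.2 TPM in E76K against 27.1, 26.8 and 29.2 TPM in WT (0.50 ± 0.13, adjusted p = 0.00756), and when rescaled in 4 mutants.

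**Figure D3:**
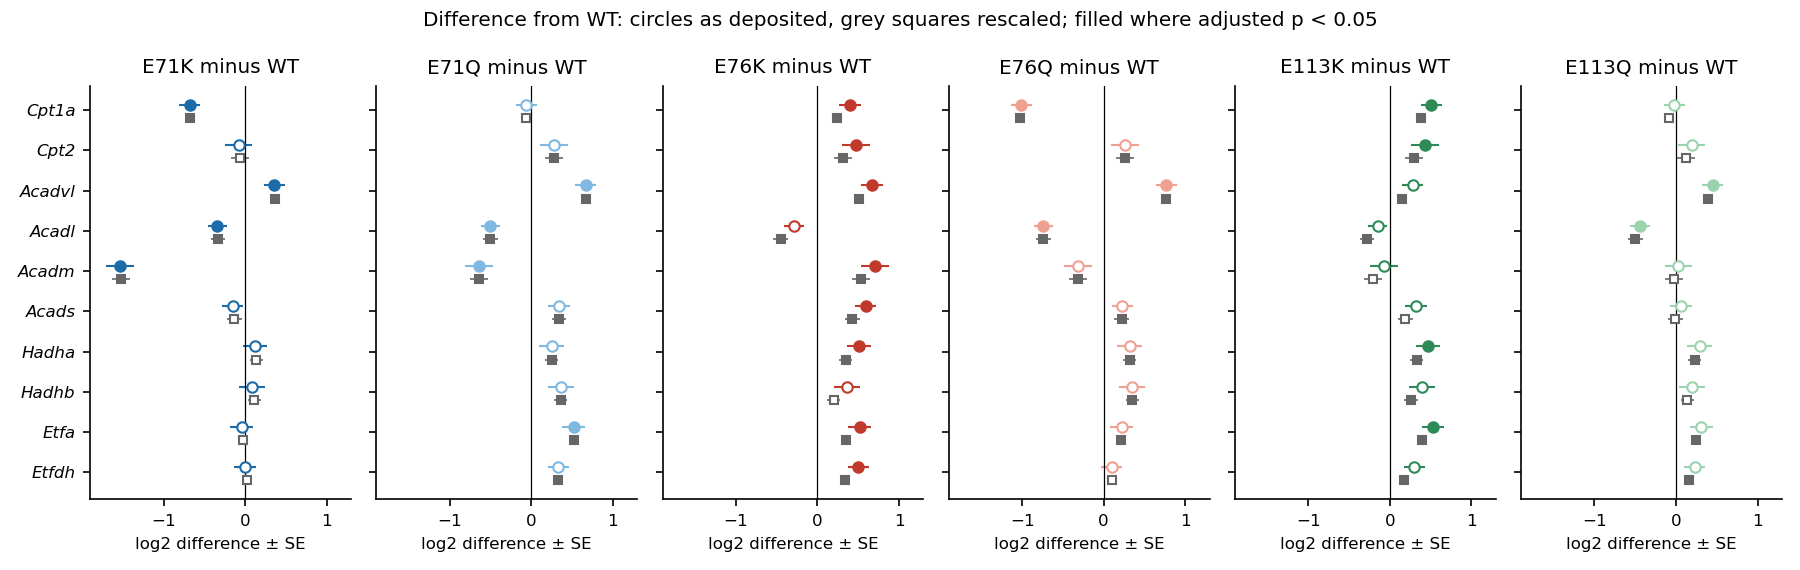
Log2 difference of each mutant from WT ± SE (horizontal axes) for the 10 genes (vertical axes), 1 panel per mutant; circles are values as deposited, grey squares rescaled ones, and filled symbols have a limma adjusted p below 0.05. Acadvl lies right of 0 and Acadl left of 0 in all 6 panels, Acadm lies between -1.53 and 0.71, and E76K has 8 filled circles on the right.

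Counted by mutant, E76K had the most calls: 8 of the 10 genes rose in E76K, where 23.5% of all tested genes rose, and 0 fell, where 9.67% of all fell (limma; at an unadjusted p below 0.05, 9 rose and 1 fell). The median difference of the members in E76K was 0.50, against 0.16 over all tested genes, and rescaled 0.34 against 0.01. The 2 not called in E76K were Hadhb, with 0.36 ± 0.16, and Acadl, which was lower. In E113K 4 rose (30.3% of all) and 0 fell (20.7% of all; unadjusted, 8 and 0). In E71K 1 rose (12.5% of all) and 3 fell (14.2% of all). In E71Q 2 rose (20.7% of all) and 2 fell (23.5% of all). In E76Q 1 rose (22% of all) and 2 fell (22.4% of all). In E113Q 1 rose (17.9% of all) and 1 fell (12.7% of all). Apart from the rises in E76K, the counts called at an adjusted p below 0.05 lay near the shares of all genes. Here and below, the shares of all genes are of calls at that adjusted p. None is given for the unadjusted counts, which cannot be set against these shares. Rescaled, the members called were 1 risen and 3 fallen in E71K, 7 and 2 in E71Q, 8 and 1 in E76K, 6 and 3 in E76Q, 7 and 1 in E113K and 4 and 1 in E113Q, while of all genes 21.6% rose and 20.5% fell in E71K, 29.3% and 29.7% in E71Q, 23.9% and 21.1% in E76K, 30.9% and 28.6% in E76Q, 31.5% and 30.7% in E113K and 24.3% and 21.5% in E113Q. All 6 comparisons share the same 3 WT libraries.

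The summed TPM of the 10 genes was between 379 and 574 in E71K, between 778 and 836 in E76K and between 687 and 722 in E113K, against 581 to 588 in WT. Rescaled, the libraries of a group drew together, with sums of 510 ± 6.36 in E71K, 652 ± 6.08 in E71Q, 738 ± 16.7 in E76K, 609 ± 10.5 in E76Q, 659 ± 10.3 in E113K and 626 ± 15.3 in E113Q, against 606 ± 13.4 in WT (SD, n = 3 each). The rescaled E71K sums, between 503 and 516, lay below and the rescaled E76K sums, between 726 and 757, above those of every other group. Abundant genes weigh most in such a sum. Rescaled, Acadm averaged 43.1 TPM in E71K and 181 TPM in E76K, against 124 TPM in WT. The rescaled median difference of the members from WT was -0.04 in E71K and 0.34 in E76K.

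The lysine and glutamine forms of each residue were compared next. At residue 71, 4 members were lower in E71K than in E71Q (12.3% of all tested genes fell) and 0 rose (12.8% of all; at an unadjusted p below 0.05 in limma, 6 fell and 0 rose). Cpt1a averaged 20.6 ± 4.1 TPM in E71K and 32.1 ± 5.55 TPM in E71Q, a difference of -0.62 ± 0.13 (adjusted p = 0.00307). Acadm averaged 42.7 TPM in E71K and 76.2 TPM in E71Q (-0.89 ± 0.17, adjusted p = 0.00133). Acads (-0.48 ± 0.13, adjusted p = 0.0156) and Etfa (-0.55 ± 0.14, limma adjusted p = 0.00752) also fell in E71K. Rescaled, 8 members were lower in E71K, all but Acadl and Hadha, and 0 higher, where 21.3% of all genes were lower and 21.8% higher. A limma fit of the 6 libraries alone called 0 of them, at adjusted p between 0.119 and 0.315 for these 4, and 2 members were lower at an unadjusted p below 0.05. The Acads call was also lost without E71Q replicate 3 (0.0563).

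At residue 76 the direction was the other way, with 5 members higher in E76K than in E76Q (23.4% of all rose) and 0 lower (8.46% of all; unadjusted in limma, 6 and 0). Cpt1a averaged 44.3 TPM in E76K and 16 TPM in E76Q, a difference of 1.41 ± 0.13 (adjusted p = 2.76e-07). Acadm averaged 196 TPM in E76K and 96.5 TPM in E76Q (1.01 ± 0.17, adjusted p = 2e-04). Acadl (0.45 ± 0.12, adjusted p = 0.00704), Etfdh (0.39 ± 0.13, adjusted p = 0.0295) and Acads (0.36 ± 0.13, limma adjusted p = 0.0495) also rose in E76K. The Acads call was lost when rescaled (adjusted p = 0.0661) and without any 1 library of either group (0.0717 to 0.129), and the Etfdh call without E76K replicate 1 or 3 or any 1 E76Q library (0.0508 to 0.113). Rescaled, 4 members rose in E76K and Acadvl fell, by 0.25 ± 0.05 (adjusted p = 0.000281), where 21.3% of all genes rose and 21.8% fell.

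At E113 the forms differed in 1 member as deposited: Cpt1a averaged 48 TPM in E113K and 32.8 TPM in E113Q, a rise of 0.54 ± 0.13 (adjusted p = 0.0063), where 14.6% of all genes rose. No member fell, where 13.3% of all did (unadjusted in limma, 2 rose and 0 fell). For Acadm the difference was -0.11 ± 0.17, with a 95% interval between -0.47 and 0.25. Rescaled, Acadvl also fell in E113K, by 0.24 ± 0.05 (adjusted p = 0.000488), where 20.2% of all genes rose and 23.3% fell.

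The difference between these differences was tested as an interaction. Between E76 and E71 it passed for 5 members, where 21.7% of all tested genes passed: Cpt1a (2.04 ± 0.19, adjusted p = 3.12e-07), Acadm (1.90 ± 0.24, adjusted p = 1.44e-05), Etfa (0.85 ± 0.19, adjusted p = 0.0038), Acads (0.84 ± 0.19, adjusted p = 0.00381) and Etfdh (0.71 ± 0.18, limma adjusted p = 0.00936). Between E113 and E71 it passed for 4, where 32.7% of all passed, led by Cpt1a with 1.16 ± 0.19 (adjusted p = 0.000222). Between E113 and E76 it passed for 2, where 29.5% of all passed, Acadm with -1.12 ± 0.24 (adjusted p = 0.0021) and Cpt1a with -0.88 ± 0.19 (adjusted p = 0.00202). Cpt1a and Acadm passed in all 3.

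**Figure D4:**
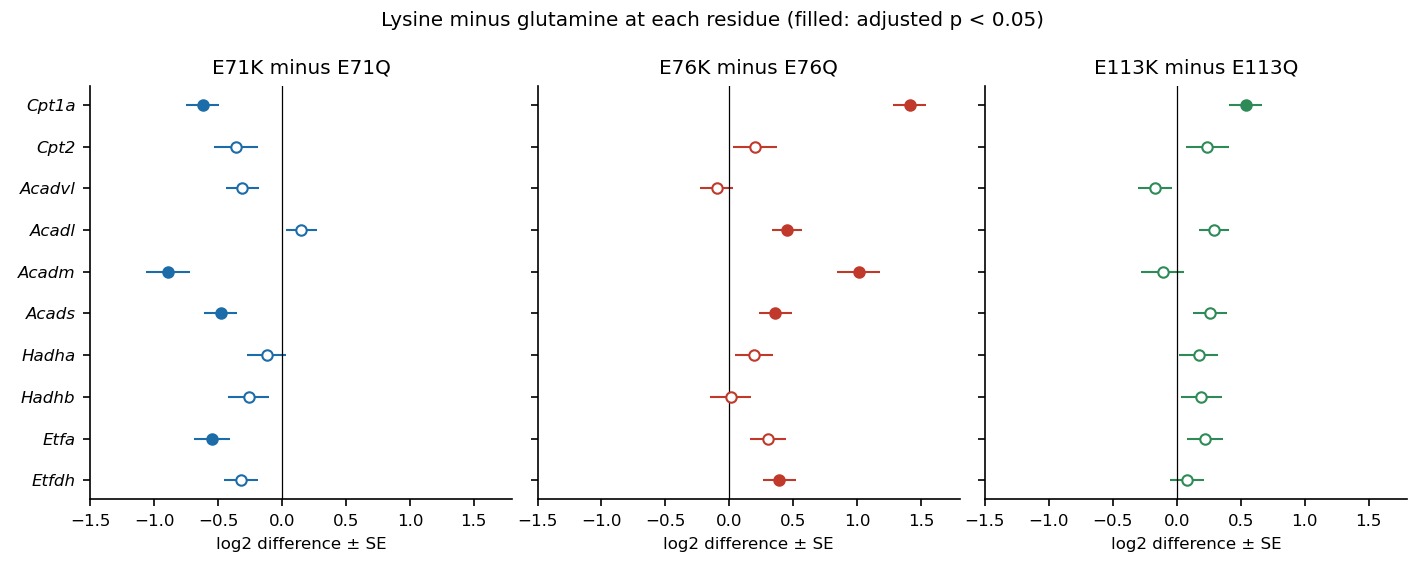
Log2 difference of the lysine from the glutamine mutant ± SE (horizontal axes) for the 10 genes (vertical axes) at residues E71, E76 and E113; filled circles have a limma adjusted p below 0.05. Cpt1a and Acadm lie left of 0 at residue 71 (-0.62 and -0.89) and right of it at residue 76 (1.41 and 1.01).

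Other genes of mitochondrial beta-oxidation were counted from a list of 16, all tested. In E71K 3 rose and 3 fell, in E71Q 6 and 1, in E76K 6 and 0, in E76Q 5 and 0, in E113K 7 and 1, and in E113Q 6 and 0. The shares of all tested genes that rose and fell were 12.5% and 14.2% in E71K, 20.7% and 23.5% in E71Q, 23.5% and 9.67% in E76K, 22% and 22.4% in E76Q, 30.3% and 20.7% in E113K, and 17.9% and 12.7% in E113Q. The list's median differences lay between -0.07 in E71K and 0.43 in E113K, against 0 and 0.13 over all tested genes. Echs1, the short-chain enoyl-CoA hydratase, averaged 71.7 ± 1.56 TPM in E76K against 43.6 ± 0.286 TPM in WT (SD, n = 3 each; 0.71 ± 0.17, adjusted p = 0.00414), and Hadh, the dehydrogenase of shorter hydroxyacyl chains, 73.3 ± 11.1 against 42.3 ± 1.05 TPM (0.77 ± 0.17, adjusted p = 0.00205). Mcee, the epimerase for the end product of odd-numbered chains, rose in 5 mutants, by between 1.04 in E76K and 1.39 in E76Q. Pcca, a subunit of the carboxylase before Mcee in that route, fell to 0.55 ± 0.594 TPM in E113K, against 7.61 ± 0.511 TPM in WT (-2.54 ± 0.25, adjusted p = 2.97e-07), and rose in E71K, E71Q, E76Q and E113Q.

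Peroxisomes shorten the longest chains by a separate enzyme set, from which 14 of 15 listed genes were tested. In E71K 3 rose and 1 fell, in E71Q 8 and 2, in E76K 4 and 1, in E76Q 4 and 1, in E113K 7 and 0, and in E113Q 4 and 1. The shares of all tested genes that rose and fell are those given above for the mitochondrial list. Decr2, the peroxisomal reductase for unsaturated chains, rose in all 6, by between 0.88 in E71K and 2.03 in E113K. Of 11 tested genes for uptake and activation, Slc27a1, a fatty acid transporter, fell in 5 mutants, to between 6.2 ± 1.59 TPM in E71Q and 11.1 ± 2.05 TPM in E113Q, against 34.4 ± 2.73 TPM in WT. Fabp4, the fatty acid carrier of fat cells and macrophages, was at 56.3 ± 22.6 TPM in E76K, against 0.382 ± 0.336 TPM in WT (5.31 ± 0.44, adjusted p = 4.7e-08).

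Malonyl-CoA, the inhibitor of CPT1, is removed by Mlycd. Mlycd rose in all 6 mutants, to 26.4 ± 10.2 TPM in E71K, 41.2 ± 9.8 TPM in E71Q, 21.6 ± 8.18 TPM in E76K, 26.8 ± 4.12 TPM in E76Q, 48.5 ± 9.83 TPM in E113K and 50.3 ± 8.2 TPM in E113Q, against 12.3 ± 1.95 TPM in WT (SD, n = 3 each). Its differences lay between 0.71 ± 0.26 in E76K (adjusted p = 0.0476) and 1.94 ± 0.26 in E113Q (limma adjusted p = 2.42e-05), and the E76K call was lost when rescaled (adjusted p = 0.0826). Among 16 markers of mitochondrial mass, none rose in 5 of the mutants and 2 rose in E113Q, while 4 fell in E71K, 10 in E71Q, 4 in E76K, 6 in E76Q, 12 in E113K and 7 in E113Q. Of all tested genes 14.2%, 23.5%, 9.67%, 22.4%, 20.7% and 12.7% fell in these mutants, in the same order, and 12.5% (E71K) to 30.3% (E113K) rose. The markers' median differences were between -0.48 in E113K and -0.13 in E71K, while the members' median was between -0.06 in E71K and 0.50 in E76K. The median of all tested genes was between 0 in E71K and E71Q and 0.16 in E76K. Of 17 TCA cycle genes, 0 rose and 1 fell in E71K, 1 and 1 in E71Q, and 4 and 1 in E76K. In E76Q it was 6 and 2, in E113K 0 and 5, and in E113Q 0 and 1. Shares of all tested genes are those given above for the mitochondrial list. Cs, citrate synthase, fell in all 6 mutants, furthest to 124 ± 13.3 TPM in E71Q against 256 ± 3.9 TPM in WT, and most others on the list did not.

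The receptors and coactivators of the pathway were followed in every group. Ppara was at 0.203 TPM or less in every library. Pparg, the PPAR of fat cells, averaged 4.26 ± 0.258 TPM in E71K, 29.7 ± 1.6 TPM in E71Q, 50.9 ± 1.45 TPM in E76K, 13 ± 0.59 TPM in E76Q, 83.9 ± 6.4 TPM in E113K and 36.4 ± 7.25 TPM in E113Q, against 20.4 ± 1.37 TPM in WT (SD, n = 3 each), and all 6 differences passed the test. It was lower than WT in E71K and E76Q, where Cpt1a fell, and higher in E76K and E113K, where Cpt1a rose. It was also higher in E71Q and E113Q, where Cpt1a did not pass the test. Acadm likewise fell in E71K and rose in E76K, but it fell in E71Q and did not pass in E113K (-0.07 ± 0.17). Acadvl rose in E71K and E76Q, where Pparg was lower. Of 7 other PPAR targets tested, 1 rose and 4 fell in E71K, 2 and 4 in E71Q, and 3 and 2 in E76K. In E76Q it was 0 and 5, in E113K 3 and 2, and in E113Q 3 and 1. Shares of all tested genes are those given above for the mitochondrial list. Any link to Pparg was not tested. Ppargc1a, the coactivator PGC-1 alpha, averaged 23.8 ± 2.08 TPM in E76Q, where Cpt1a was lowest, against 1.89 ± 0.152 TPM in WT (3.10 ± 0.49, adjusted p = 8.3e-05), and also rose in E76K (2.15 ± 0.49, adjusted p = 0.00293) and E71Q (1.32 ± 0.49, adjusted p = 0.0375). Ppard passed the test in no mutant as deposited, with group means between 14.7 ± 5.74 TPM in E71K and 24.1 ± 0.304 TPM in E113K, and Esrra, the receptor ERR alpha, rose in E76K (0.56 ± 0.18, adjusted p = 0.0278) and E76Q (0.68 ± 0.18, adjusted p = 0.0065). Rxra, the partner of the PPARs, rose in E76Q (0.69 ± 0.15, adjusted p = 0.00125) and E113K (0.47 ± 0.15, adjusted p = 0.0134) and fell in E71K (-0.42 ± 0.15, limma adjusted p = 0.0446). Rescaled, Rxra also fell in E76K (adjusted p = 0.00021) and E113Q (adjusted p = 0.000305) and rose in E71Q (adjusted p = 0.028), Ppard fell in E71K (adjusted p = 0.0178) and Ppargc1a rose in E71K (limma adjusted p = 0.0227). Ppargc1b, below the filter, averaged at most 1.76 ± 0.397 TPM, in WT.

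**Figure D5:**
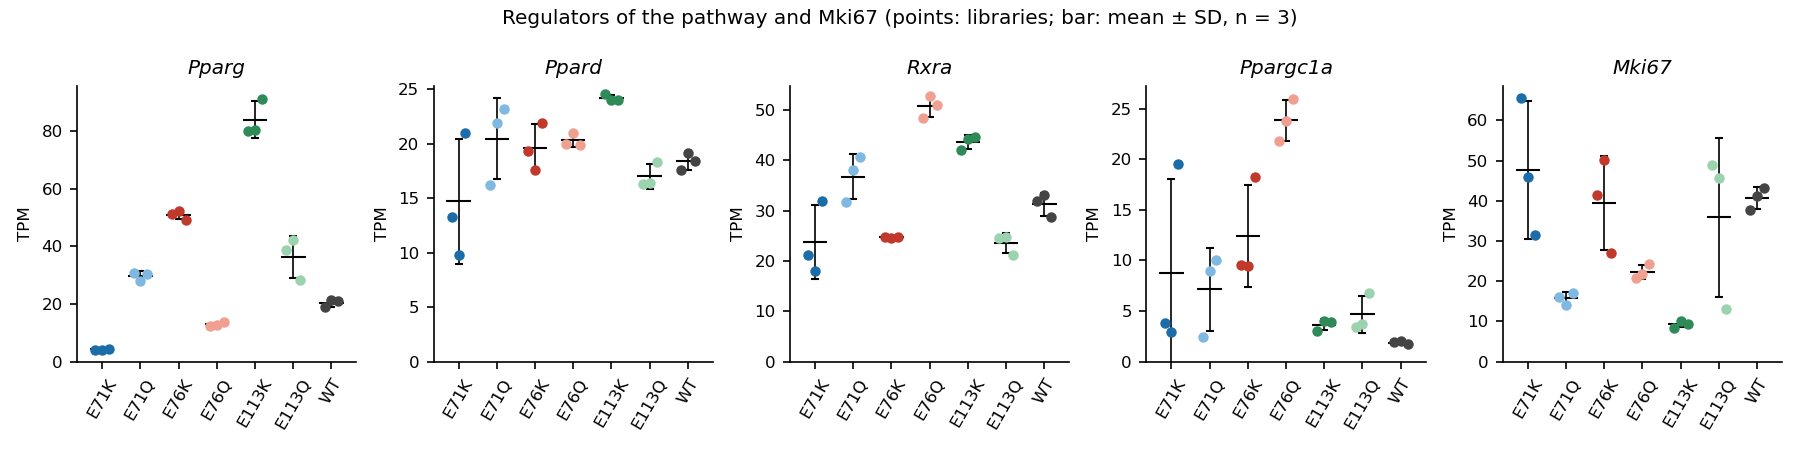
TPM of Pparg, Ppard, Rxra, Ppargc1a and the proliferation marker Mki67 (vertical axes, linear and starting at 0) in the 7 H2B groups; points are libraries and bars the mean ± SD of 3. Pparg is lowest in E71K (4.26 TPM) and highest in E113K (83.9 TPM), and Ppargc1a is highest in E76Q (23.8 TPM).

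Other marker lists moved with the groups, and their part in the members' differences was not tested. Of 15 genes of dividing cells 14 fell in E71Q, 10 in E76Q and 15 in E113K, and 0, 2 and 2 in E71K, E76K and E113Q, where 23.5%, 22.4%, 20.7%, 14.2%, 9.67% and 12.7% of all tested genes fell, in the same order. Their summed TPM was between 335 and 475 in E71Q, between 490 and 505 in E76Q and between 212 and 217 in E113K, against 1080 to 1190 in WT. Within groups it was 649 TPM in E71K replicate 3 against 1030 and 1430 TPM in its mates, 494 TPM in E76K replicate 3 against 1110 and 1130 TPM, and 331 TPM in E113Q replicate 3 against 1150 and 1190 TPM. The 10 cartilage markers summed to 246 to 1090 TPM in E71K, 293 to 531 TPM in E71Q and 864 to 929 TPM in E76Q, against 78.4 to 79.5 TPM in WT. In E113Q they summed to 106 to 199 TPM, in E76K to 47.9 to 67.2 TPM and in E113K to 30.6 to 32.1 TPM. Acan was at 0.0425 TPM or less in every library, and Matn1, Matn3 and Sox5 averaged below 1 TPM. Comp passed the test in neither E71K nor E71Q, and Cnmd was uneven in E71K (112 ± 171 TPM, SD). The 7 blood cell markers summed to 30.6 to 88.3 TPM in E71Q, 60.3 to 104 TPM in E76K, 40.9 to 43.8 TPM in E76Q and 0.93 to 1.57 TPM in E113K, against 14.9 to 17.8 TPM in WT. Except in E113K, nearly all of this was Lyz2, which averaged 74.6 TPM in E76K against 15.4 TPM in WT. Ptprc, which defines white blood cells, was at 0.172 TPM or less and Cd3e was listed at 0. The 8 epithelial markers summed to 81.2 to 488 TPM in E71K and 41.5 to 365 TPM in E71Q, against 11.5 to 14.5 TPM in WT. Krt14 averaged 294 TPM in E71K against 1.31 TPM in WT, and Epcam was at 0.0949 TPM or less in every library. Of the 3 epithelial markers tested, Krt14 rose in E71K and E71Q, while the other 2, Cdh1 and Krt8, fell in both. Their differences were -0.86 and -2.37 in E71K, and -2.18 and -2.17 in E71Q. The 8 muscle markers summed to at most 13.3 TPM in any mutant library, against 24.9 to 27.4 TPM in WT, and the 6 endothelial markers to at most 5.83 TPM in any library. Without the 4 libraries apart, the members called against WT were 3 in E71K, 9 in E71Q and 9 in E76K. They were 6 in E76Q, 8 in E113K and 4 in E113Q. With all 21 libraries these counts were 4, 4, 8, 3, 4 and 2, in the same order. The shares of all genes called without the 4 libraries were 40.6% in E71K, 59.3% in E71Q and 43.8% in E76K. They were 59.9% in E76Q, 64.6% in E113K and 44.4% in E113Q.

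The genes whose log2(TPM + 1) followed each member most closely over the 21 libraries were named by Pearson's r, among the 9922 genes that averaged 5 TPM or more. These r describe libraries that share 7 group means and the scaling of each library, and have no test. Cpt1a was closest to Dhrs4 (0.969) and Pgpep1 (0.953), and Acadm to Gla (0.916), H2-M3 (0.908) and Gata4 (0.906). Acadl was closest to Memo1 (0.946), Acadvl to Ndufb3 (0.926), Acads to Dynlrb1 (0.932) and Cpt2 to 2900076A07Rik (0.928). Hadha was closest to Oaz2 (0.969), Hadhb to Atxn10 (0.960), Etfa to Rit1 (0.936) and Etfdh to Atp9b (0.942), with Rit1 next (0.923). No member was among the closest 3 of another.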

How the data were processed

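RNA of 21 C3H/10T1/2 libraries was sequenced, with RNA from an RNeasy Mini kit and libraries from NEBNext Ultra II, per the labels' protocols. The authors deposited TPM per gene and library, and their group means, which were not used here. Salmon, featureCounts 1.4.4, DESeq and build mm10 are named per the submitters' processing notes, without their roles. The TPM of a library summed to between 999897 and 999931. Counts and read totals were not used here. All per-sample columns were mapped to a library.

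The members and the 20 gene lists were chosen with earlier results of these data known. The 12192 genes that averaged 1 TPM or more were fitted as log2(TPM + 1) with limma 3.58.1 in R 4.3.3, as 7 groups, letting the prior variance follow the mean level (degrees of freedom: 14 residual, 3.19 prior). A difference on this scale understates the change of low genes. Adjustment was by Benjamini-Hochberg over all tested genes within each of 9 comparisons of 2 groups, 3 interactions and an F test. The fit was tested on simulated data. Rescaling divided each library by its median ratio to the geometric mean over 8056 genes above 5 TPM in every library, for the same tested genes. Named beside the members were, per list and comparison, up to 3 called genes with the largest difference and a mean of at least 5 TPM, 8 regulators and markers followed in every group, and genes among the 3 closest to each member, not all of which are reported here. Replicate numbers were not used to pair libraries across groups, except as a block in 1 alternative. No 2 libraries were identical. In all, 35 alternatives were tried. Promoter windows and gene starts came from RefSeq (GRCm38.p6, the assembly of mm10), read with Python 3.11.15.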

Additional observations from a re-analysis of the deposited data

Results flagged for a closer look

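These results were picked out because the lysine minus glutamine difference of a member itself differed between residues in an interaction test (limma, adjusted over all tested genes). Between E76 and E71 the difference of differences on the log2 scale was 2.04 for Cpt1a, 1.90 for Acadm, 0.84 for Acads, 0.85 for Etfa and 0.71 for Etfdh. Between E113 and E71 it was 1.16 for Cpt1a, 0.78 for Acadm (adjusted p = 0.0195), 0.75 for Acads (adjusted p = 0.00646) and 0.77 for Etfa (adjusted p = 0.00557). Between E113 and E76 it was -0.88 for Cpt1a and -1.12 for Acadm. Fitted on only the 12 libraries of the residues compared, 4 of these lost their call: Acadm (adjusted p = 0.0963), Acads (0.0552) and Etfa (0.0524) between E113 and E71, and Etfdh (0.0675) between E76 and E71.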

How the results depend on the processing

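Of 90 member differences between 2 groups 35 were called, and of 30 member interactions 11, and 0 of these 46 changed sign under any of 35 alternatives. The counts of members called moved with the scaling, the libraries used and the threshold. A count for the interactions, here and below, is of members that passed at least 1 of the 3 interactions. It is not a count among the 30 member interactions. With all 21 libraries the members that passed were Cpt1a, Acadm, Acads, Etfa and Etfdh. After rescaling, quantile normalization or leaving out Mir6236 they were 9, 9 and 9 in E71Q, 9, 8 and 9 in E76Q, 8, 8 and 8 in E113K and 5, 5 and 5 in E113Q against WT, 8, 8 and 8 for E71K minus E71Q, and 2, 3 and 5 for E113K minus E113Q. The shares of all genes called under these scalings were 59%, 58.5% and 57.8% in E71Q, 59.5%, 59.1% and 58.2% in E76Q, 62.2%, 62.2% and 61.6% in E113K, 45.9%, 45.7% and 44.7% in E113Q, 43.2%, 42.2% and 40.7% for E71K minus E71Q, and 43.5%, 43.4% and 41.8% for E113K minus E113Q. Without the 4 libraries apart the counts of members were 9 in E71Q, 6 in E76Q, 8 in E113K and 4 in E113Q. They were 9 for E71K minus E71Q and 9 for the interactions. Of all genes, 59.3%, 59.9%, 64.6%, 44.4% and 53.5% were called in the first 5 of these. Fitted on only the libraries compared the counts of members were 1 in E71K, 8 in E76Q, 8 in E113K, 5 in E113Q, 0 for E71K minus E71Q and 2 for E113K minus E113Q (2 fell at an unadjusted p below 0.05 in the limma fit that called 0, where 4.81% of all genes were called). The other fits called 13.7% of all genes in E71K, 69.7% in E76Q, 74% in E113K, 41.3% in E113Q and 36.2% for E113K minus E113Q. At an adjusted p below 0.01 the counts of members were 2 in E71K, 5 in E76K, 2 in E113K, 1 in E113Q and 3 for E76K minus E76Q. With a log2 difference of at least 1 required they were 1 in E71K, 0 in E71Q, E76K, E113K and E113Q, 1 in E76Q, 0 for E71K minus E71Q and E113K minus E113Q, 2 for E76K minus E76Q and 2 for the interactions. The cause of these changes was not tested. Shares of all genes are not given for these stricter thresholds, the unadjusted p, the fits without 1 library or the replicate block. Those counts describe the members alone.

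Leaving out 1 library at a time gave 2 to 4 members called in E71K, 4 to 7 in E71Q, 6 to 10 in E76K, 3 to 7 in E76Q, 3 to 8 in E113K, 2 to 3 in E113Q, 3 to 8 for E71K minus E71Q, 3 to 6 for E76K minus E76Q, 1 to 3 for E113K minus E113Q, 6 to 10 in the F test and 5 to 8 for the interactions. Since all groups share 1 spread, leaving out E71K replicate 2 or 3 moved counts outside E71K too: to 7 or 5 in E76Q and to 8 or 8 in E113K. Without E71K replicate 3 it was 2 in E71K, 7 for E71K minus E71Q and 8 for the interactions, without E71K replicate 2 it was 7 in E71Q and 3 for E113K minus E113Q, and without E71Q replicate 1 it was 7 in E71Q, 8 for E71K minus E71Q and 2 for E113K minus E113Q. It was 2 for E113K minus E113Q without E71K replicate 1, 2 in E71K without any 1 WT library, and 3 for E76K minus E76Q without E76K replicate 1 or 3 or any 1 E76Q library.

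With the replicate number as a block the counts were 3, 6, 8, 3, 5 and 2 for E71K, E71Q, E76K, E76Q, E113K and E113Q, 4, 5 and 1 between the forms of each residue, 9 in the F test and 6 for the interactions. Deviations of same-numbered libraries from their group means had correlations between -0.174 and 0.249 in the pairs compared. For E71K with E71Q they were 0.237, -0.174 and 0.249 in replicates 1, 2 and 3. Such values do not show whether same-numbered libraries shared a batch. The block ended 1 call, of Acadvl in E71K (adjusted p = 0.053).

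Some differences near 0 that were not called changed sign. Leaving out 1 library at a time, the differences from WT in E71K ran between -0.25 and 0.13 for Cpt2, -0.26 and 0.07 for Acads, -0.07 and 0.30 for Hadha, -0.05 and 0.30 for Hadhb, -0.13 and 0.15 for Etfa and -0.13 and 0.19 for Etfdh. They ran between -0.15 and 0.08 for Cpt1a in E71Q, and in E113Q between -0.06 and 0.02 for Cpt1a and between -0.02 and 0.12 for Acads. Hadha for E71K minus E71Q ran between -0.32 and 0.05, and Hadhb for E76K minus E76Q between -0.11 and 0.08. Without Mir6236, Cpt2 was at 0.05 and Etfa at 0.09 in E71K, Cpt1a at 0.05 in E71Q and Hadhb at -0.12 for E76K minus E76Q. Without the 4 libraries, Hadha was at -0.07, Hadhb at -0.05 and Etfdh at -0.13 in E71K, Cpt1a at 0.08 in E71Q and 0.02 in E113Q, and Hadhb at -0.11 for E76K minus E76Q. Rescaled and by quantile normalization, Acadm in E113Q was at -0.03 and -0.01, Acads in E113Q at -0.01 and 0, and Hadhb for E76K minus E76Q at -0.15 and -0.14. By quantile normalization Etfa in E71K was at 0.04. Depth is unknown, so TPM gives no counting error.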
